A study of Mus musculus with 30 samples.

Results

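The BTG and TOB genes code for a small family of proteins that slow cell division, and accessibility was examined here at every chromatin peak assigned to Btg1, Btg2, Btg3, Tob1 or Tob2. The peaks were chosen by the gene name that the authors' peak table gives them, and the family was proposed with results of these data in view. There were 33 such peaks among the 38526 of the table, 19 of them at Btg1, 7 at Btg2, 2 at Btg3, 2 at Tob1 and 3 at Tob2. The assay was ATAC-seq, where a transposase cuts and tags open chromatin, on 30 libraries of mouse splenic natural killer (NK) cells grown over 5 days with IL15:IL15Ra and IL-2. Knockout (KO) cells came from GzmbCrePtger2-/-Ptger4fl/fl mice, in which Ptger2, coding for the prostaglandin E2 (PGE2) receptor EP2, is deleted throughout and Ptger4, coding for the receptor EP4, is floxed and cut by Cre under the granzyme B gene. Wild-type (WT) cells came from C57BL/6J mice without that Cre, so the loss of the receptors and the presence of Cre cannot be told apart. Within each genotype, cells were treated with PGE2 at 100 ng/ml for 5 h or left untreated for 5 h. They were either stimulated through the activating receptor NK1.1 during the last 4 h, after 1 h of treatment, or left resting. Each of the 8 groups held 4 libraries, except PGE2-treated resting WT and untreated resting KO with 3.

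BTG and TOB proteins share a domain by which they bind the catalytic subunits Cnot7 and Cnot8 of the CCR4-NOT complex, the main enzyme that shortens the poly(A) tails of messenger RNAs. Tob1 and Tob2 also bind the poly(A)-binding protein and so bring the deadenylase to the tail. In mouse T cells, Btg1 and Btg2 act together to keep resting cells quiescent, and Btg2 is also known as an immediate-early gene and as a target of p53.

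The libraries held 8444350 to 20153816 reads in peaks, and a peak of the family held 2 to 4246 reads in a library. Values are normalised read counts, given per library or as the mean ± SD of a group, and accessibility near a gene is not its expression. The promoter peak of Ptger2 lay between 83.6 and 247 in the 15 KO libraries, against 560 to 1109 in the 15 WT libraries, and the peak in the Ptger4 exon between 56.2 and 152 in KO, against 434 to 685 in WT. All 8 NK cell markers had a promoter peak, with means from 192 to 1787, whereas such a peak was found for 0 of 4 markers of B cells, 0 of 7 of T cells and 1 of 4 of myeloid cells (Cd14). Untreated resting KO replicate 2 stood apart on the fifth principal component of all peaks (score 51.7, against -14.9 to 9.16 in the other libraries), and values without it are given beside the comparisons that use untreated resting KO cells. Log2 changes are given with their standard error (SE) and come from limma, fitted over all 38525 peaks with a mean of at least 10, among them all 33 of the family. A peak is called when its p, adjusted by Benjamini-Hochberg, is under 0.05. The labels do not say that replicates were separate animals or cultures, so these p-values measure the spread between the samples. In bulk libraries a smaller share of cells with an open site and less opening per cell cannot be told apart.

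Promoter sequences of 4 of the genes are shown, since they differ in the motifs they hold and in which contrasts called their peaks, taken from RefSeq (GRCm38.p6) as the 250 bases before the start and the 50 after it. The promoter peaks of Btg3 and Tob2 were called on stimulation and with PGE2 during stimulation. The Tob1 promoter peak, whose sequence is not printed but holds a core site, was called on stimulation and in neither PGE2 contrast of WT cells. That of Btg2 was not called in any comparison, and that of Btg1 was called only with PGE2 during stimulation, and there only when the replicate number was a block (adjusted p = 0.00366) or when the fit held fewer libraries. Capitals mark matches, on either strand, to the cAMP response element TGACGTCA (CRE) or to its shorter core site TGACG, which were searched because PGE2 acts through cAMP at EP2 and EP4.
Btg2 (chr1:134079106-134079405, minus strand): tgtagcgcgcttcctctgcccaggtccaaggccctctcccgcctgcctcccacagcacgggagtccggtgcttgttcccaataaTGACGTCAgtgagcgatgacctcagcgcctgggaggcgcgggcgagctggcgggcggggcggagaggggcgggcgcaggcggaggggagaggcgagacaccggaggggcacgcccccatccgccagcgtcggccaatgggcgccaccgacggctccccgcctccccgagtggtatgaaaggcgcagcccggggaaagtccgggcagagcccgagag
Btg1 (chr10:96616751-96617050, plus strand): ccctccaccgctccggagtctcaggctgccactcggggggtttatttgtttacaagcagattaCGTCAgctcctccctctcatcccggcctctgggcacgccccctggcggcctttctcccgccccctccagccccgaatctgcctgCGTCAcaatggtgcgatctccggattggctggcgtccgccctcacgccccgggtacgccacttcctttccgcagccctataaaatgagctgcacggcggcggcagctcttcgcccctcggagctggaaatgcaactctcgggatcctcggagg
Btg3 (chr16:78376761-78377060, minus strand): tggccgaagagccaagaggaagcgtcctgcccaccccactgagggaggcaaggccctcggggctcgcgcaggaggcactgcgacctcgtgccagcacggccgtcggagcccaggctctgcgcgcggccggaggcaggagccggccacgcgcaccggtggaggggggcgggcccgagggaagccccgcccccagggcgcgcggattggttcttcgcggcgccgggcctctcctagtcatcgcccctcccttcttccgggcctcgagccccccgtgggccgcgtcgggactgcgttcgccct
Tob2 (chr15:81858277-81858576, minus strand): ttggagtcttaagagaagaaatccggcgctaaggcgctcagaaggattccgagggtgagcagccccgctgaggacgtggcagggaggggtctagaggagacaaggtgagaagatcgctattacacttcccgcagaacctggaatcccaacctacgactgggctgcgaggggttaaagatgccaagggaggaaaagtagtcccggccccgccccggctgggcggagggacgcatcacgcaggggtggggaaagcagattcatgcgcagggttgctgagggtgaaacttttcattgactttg
Counting the last base before the start as -1, the Btg2 promoter held 1 full CRE beginning at -166, found in 1.8% of the 32851 RefSeq promoters of the same length. Both of its core-site matches lie within that CRE. Btg1 held 2 core sites, at -187 and -103, and Tob1, not printed, held 1 at -96. A core site was present in 20.8% of all promoters. The Btg3 and Tob2 windows held neither, and none of the windows held the AP-1 motif TGANTCA, which 7.8% of all promoters held. The 4 printed windows lie inside the promoter peaks. Their GC content was 72.0% for Btg2, 64.7% for Btg1, 75.7% for Btg3 and 58.0% for Tob2, against a median of 52.7% over all promoters. A letter match is not evidence that a factor binds there.

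The peaks of Btg1 lay from 156.2 kb upstream to 170.4 kb downstream of its start, all but the promoter peak intergenic, with no other protein-coding gene between any of them and Btg1. The 7 peaks of Btg2 lay within 18.0 kb of its start, with 4 downstream and 2 upstream of the promoter peak. Of all 14886 genes in the table, 75 had at least 19 peaks and the median was 2. Btg3 and Tob1 each had a promoter peak and 1 other, and Tob2 had a promoter, an intron and an exon peak. The other Btg3 peak lies in an intron of Cxadr, the gene of the coxsackievirus and adenovirus receptor, so its link to Btg3 rests on the table's assignment alone. Some distal peaks lie nearer to the closest edge of another protein-coding gene than to the start of their own. The distance to the nearest edge of their own gene was not measured and can be shorter, so the other gene need not be the nearer one. The Btg2 peaks 18.0 and 15.7 kb downstream are 12.9 and 15.2 kb from Fmod. The Btg1 peak 170.4 kb downstream is 114.0 kb from Gm46240, and the Tob1 peak 50.3 kb upstream is 35.0 kb from Spag9. Which gene a distal peak acts on was not tested.

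At rest, the promoters of the family differed in level. Per kb of peak, untreated resting WT libraries had 1341 ± 53.4 normalised counts at the Btg1 promoter (SD, n = 4), 1123 ± 29.1 at Tob1, 617 ± 32.6 at Btg2, 375.5 ± 16.8 at Btg3 and 375.1 ± 36.1 at Tob2. Of all promoter peaks, 97.1% lay below Btg1 and 94.5% below Tob1 on this per-kb scale, against 53.3% below Btg3. The libraries of neighbouring genes in this order did not overlap, except those of Btg3 and Tob2.

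NK1.1 stimulation of untreated WT cells opened 13 peaks of the family and closed 10, and PGE2 during stimulation opened 6 and closed 10. The largest changes on stimulation were openings of the Btg1 peaks 39.5 and 137.3 kb downstream, by 8.09-fold and 8.64-fold, and the largest with PGE2 were openings of the Btg2 peaks 13.7 and 11.9 kb downstream, by 2.93-fold and 2.76-fold. The share of the family called on stimulation was 69.7%, against 56.3% of all peaks, and with PGE2 during stimulation 48.5%, against 40.5% of all peaks. Most peaks of the family are intergenic, and of all intergenic peaks 62.4% and 46.1% were called in these contrasts. In resting WT cells, PGE2 opened 5 of the 33 peaks and closed 2, where 14.9% of all peaks and 19.7% of intergenic peaks were called. Without untreated resting WT replicate 1 the family count was 4 in place of 7, and the count over all peaks 4777 in place of 5740. The median log2 change over the family was 0.03 on stimulation, -0.05 with PGE2 during stimulation and -0.05 with PGE2 at rest, against -0.02, -0.01 and -0.01 over all peaks. The contrasts of stimulation and of PGE2 during stimulation share the untreated stimulated WT libraries, so their values stand side by side below and are not independent of each other.

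**Figure D1:**
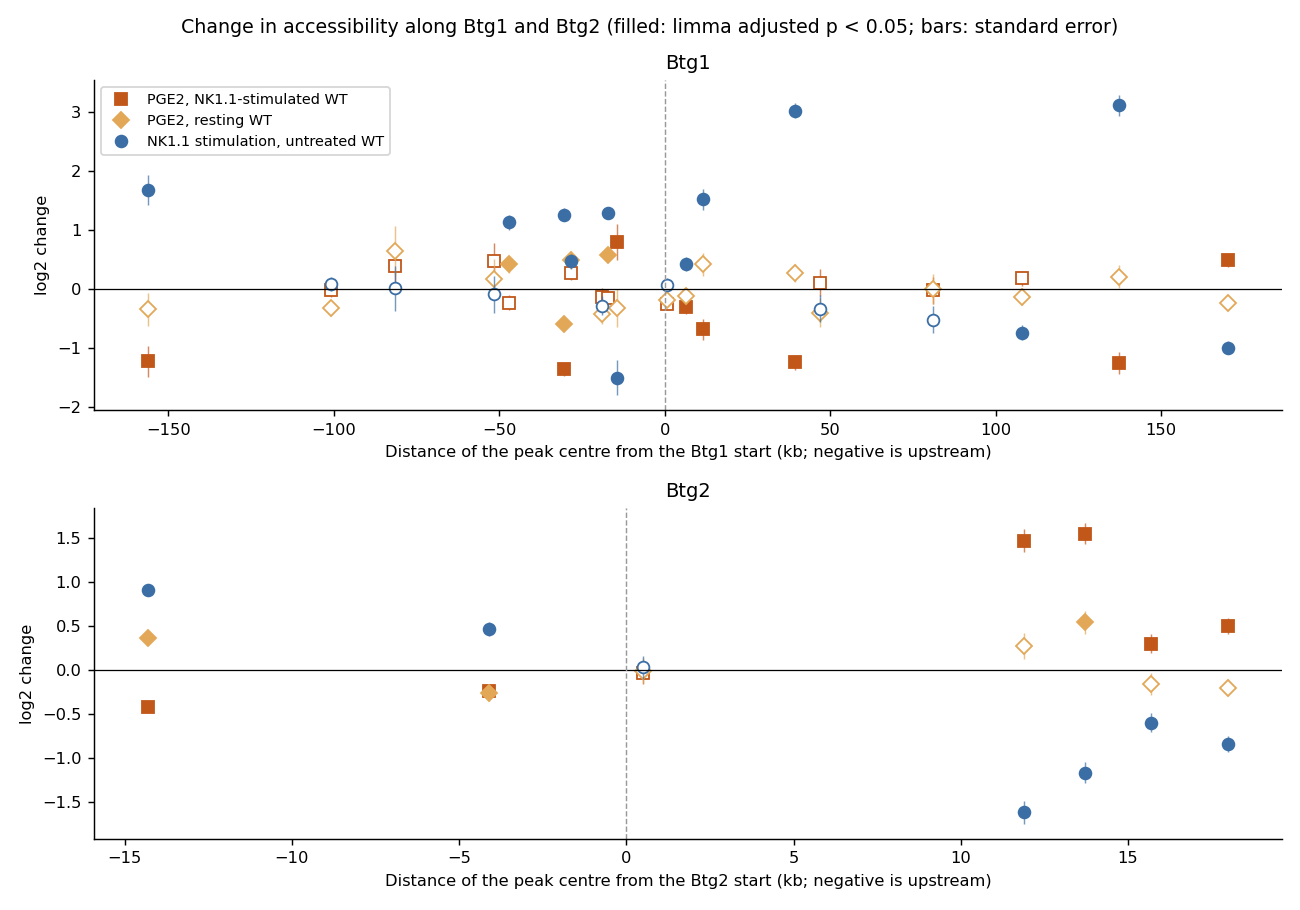
Log2 change at each peak of Btg1 (top) and Btg2 (bottom) against its distance from the gene's start in kb, for PGE2 in stimulated WT cells, PGE2 in resting WT cells and NK1.1 stimulation of untreated WT cells; filled symbols passed an adjusted p of 0.05 and bars are standard errors. Both Btg1 peaks with a stimulation change above 3 lie downstream, 39.5 and 137.3 kb from the start, and the Btg2 peaks 11.9 and 13.7 kb downstream stand highest with PGE2 during stimulation.

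Btg2, the immediate-early member, had its largest changes on stimulation and with PGE2 during stimulation at the peaks 13.7 and 11.9 kb downstream. The peak 13.7 kb downstream (chr1:134065109-134065883) had 766, 665, 666 and 594 normalised counts in PGE2-treated stimulated WT libraries, against 239, 264, 216 and 197 in untreated stimulated WT libraries. At rest it had 746, 709 and 795 with PGE2, against 496, 476, 527 and 561 in untreated WT libraries. In both states each PGE2-treated WT library lay above each untreated WT library. The peak rose with PGE2 in stimulated cells (log2 change 1.55 ± 0.12, limma adjusted p = 5.52e-13) and in resting cells (log2 change 0.54 ± 0.13, limma adjusted p = 0.00228). Stimulation of untreated WT cells lowered it (log2 change -1.17 ± 0.12, limma adjusted p = 9.29e-11), whereas with PGE2 present the stimulated cells differed from resting ones by -0.16 ± 0.13 on the log2 scale, which did not pass (limma adjusted p = 0.444).

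In KO cells the same Btg2 peak had 243, 326, 187 and 216 in PGE2-treated stimulated libraries, against 184, 233, 216 and 206 in untreated stimulated ones, and 520.3, 441, 511 and 624 in PGE2-treated resting libraries, against 456, 520.3 and 475 in untreated resting ones. The KO groups overlapped in both states. Over the 8 groups, the level was highest in PGE2-treated resting WT cells, followed by PGE2-treated stimulated WT, PGE2-treated resting KO, untreated resting WT and untreated resting KO. Each of these groups overlapped with its neighbour in the order. PGE2-treated stimulated KO, untreated stimulated WT and untreated stimulated KO were the 3 lowest and overlapped with each other, and no library of them reached a library of the 5 groups above.

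The neighbouring Btg2 peak 11.9 kb downstream (chr1:134066995-134067612) had 174, 209.7, 169 and 156 in PGE2-treated stimulated WT libraries, against 61.7, 66.4, 57.9 and 66.8 in untreated stimulated WT libraries, without overlap. PGE2 raised it during stimulation (log2 change 1.47 ± 0.13, limma adjusted p = 4.24e-11). At rest, where its means were 236 ± 10.4 with PGE2 and 196 ± 7.57 untreated, the log2 change of 0.27 ± 0.15 did not pass (limma adjusted p = 0.246), although the libraries did not overlap. It fell on stimulation of untreated WT cells (log2 change -1.62 ± 0.13, limma adjusted p = 6.01e-13). The 2 peaks farther downstream had smaller changes of the same signs as this one in both contrasts. The peak 18.0 kb downstream averaged 1319.9 ± 29.8 in PGE2-treated stimulated WT cells and 939 ± 104 in untreated stimulated WT cells (log2 change 0.50 ± 0.09, limma adjusted p = 2.92e-05), and its log2 change on stimulation was -0.84 ± 0.09 (limma adjusted p = 4.67e-10). The peak 15.7 kb downstream averaged 838 ± 63.8 in PGE2-treated stimulated WT cells and 682 ± 96.4 in untreated stimulated WT cells, with libraries that overlapped (log2 change 0.30 ± 0.11, limma adjusted p = 0.0263). Its PGE2 call was lost when single libraries were left out (adjusted p = 0.0505 to 0.133 without PGE2-treated stimulated WT replicates 1 or 2 or untreated stimulated WT replicates 3 or 4). Its log2 change on stimulation was -0.60 ± 0.11 (limma adjusted p = 1.76e-05).

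Upstream of Btg2 the signs on stimulation and with PGE2 during stimulation differed from those downstream, whereas with PGE2 at rest a peak on each side rose. The peak 14.3 kb upstream (chr1:134092593-134094273) had 1401, 1389, 1231 and 1296 in PGE2-treated stimulated WT libraries, against 1959, 1674, 1674 and 1828 in untreated stimulated WT libraries. At rest it had 1139.7, 1321 and 1188 with PGE2, against 958, 978, 938 and 904 untreated. PGE2 thus lowered it during stimulation (log2 change -0.42 ± 0.07, limma adjusted p = 7.17e-06) and raised it at rest (log2 change 0.36 ± 0.08, limma adjusted p = 0.000597), with no overlap of libraries in either state. The difference between these 2 PGE2 effects was -0.79 ± 0.10 on the log2 scale, stimulated minus resting (limma adjusted p = 6.39e-07). Of the 7 peaks of the family called with PGE2 at rest and the 16 called with PGE2 during stimulation, 3 were called in both with the same sign and this one with opposite signs. The matching overlap over all peaks is not given here, so these counts are not read as a trait of the family. Stimulation of untreated WT cells raised the peak 14.3 kb upstream (log2 change 0.91 ± 0.07, limma adjusted p = 8.51e-14). The peak 4.1 kb upstream averaged 925 ± 109 in PGE2-treated stimulated WT cells and 1089 ± 87.5 in untreated stimulated ones (log2 change -0.24 ± 0.08, limma adjusted p = 0.0152), and 657 ± 54.1 in PGE2-treated resting cells and 786 ± 80.8 in untreated resting ones (log2 change -0.26 ± 0.09, limma adjusted p = 0.0369). Its libraries overlapped in both contrasts, and neither call survived leaving out certain libraries. During stimulation these were PGE2-treated stimulated WT replicates 3 or 4 or untreated stimulated WT replicate 1 (adjusted p = 0.0678 to 0.0727), and at rest PGE2-treated resting WT replicates 3 or 4 or untreated resting WT replicates 1 or 2 (adjusted p = 0.104 to 0.205). On stimulation of untreated WT cells the peak rose (log2 change 0.47 ± 0.08, limma adjusted p = 3.71e-06).

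The Btg2 promoter, which carries the full CRE, was not called in any of the 13 comparisons. It had 1763, 1817, 1454 and 1538 in PGE2-treated stimulated WT libraries, against 1887, 1755, 1485 and 1577 in untreated stimulated WT libraries, and the groups overlapped. With PGE2 its log2 change was -0.03 in stimulated WT cells (95% interval -0.28 to 0.23) and -0.01 in resting WT cells (95% interval -0.29 to 0.26). On stimulation of untreated WT cells it was 0.03 (95% interval -0.22 to 0.29). Over the 8 groups its mean ranged from 1430.3 in untreated resting KO to 1676 in untreated stimulated WT cells.

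**Figure D2:**
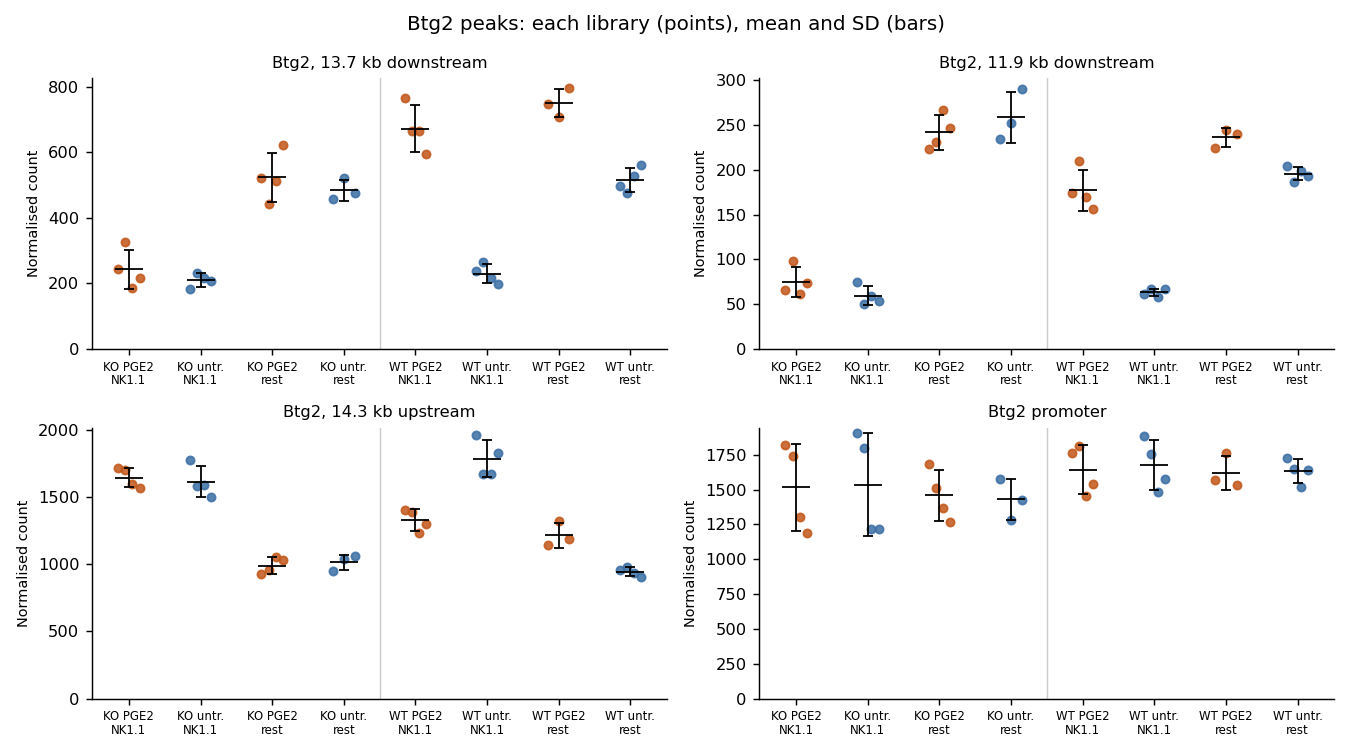
Normalised read counts of 4 Btg2 peaks in each library (points) of the 8 groups, with the group mean and SD (black bars); orange points are PGE2-treated and blue points untreated libraries. At 13.7 and 11.9 kb downstream, all PGE2-treated stimulated WT libraries lie above all untreated stimulated WT libraries, at 14.3 kb upstream they lie below them, and at the promoter the groups overlap.

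Btg1, which acts with Btg2 in quiescent T cells, had the strongest openings of the family on stimulation. The peak 39.5 kb downstream (chr10:96655812-96657112) had 558, 468, 574 and 592 in untreated stimulated WT libraries, against 71.5, 53.5, 76.6 and 66.9 in untreated resting WT libraries (log2 change 3.02 ± 0.13, limma adjusted p = 1.79e-20). The peak 137.3 kb downstream (chr10:96753833-96754830) had 232, 213, 229.9 and 231 in untreated stimulated WT libraries, against 18.8, 24.3, 37.3 and 23.9 in untreated resting ones (log2 change 3.11 ± 0.18, limma adjusted p = 2.31e-17). In PGE2-treated stimulated WT libraries the peak at 39.5 kb had 253, 195, 261 and 217, and that at 137.3 kb had 111, 78.1, 86.6 and 106. At both peaks each of these libraries was lower than every untreated stimulated WT library and higher than every resting WT library. The PGE2 change during stimulation was -1.24 ± 0.13 at 39.5 kb (limma adjusted p = 1.86e-09) and -1.25 ± 0.18 at 137.3 kb (limma adjusted p = 5.09e-07). At rest, PGE2 changed neither past the threshold (0.27 ± 0.15 and 0.21 ± 0.19, limma adjusted p = 0.252 and 0.559).

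Upstream of Btg1, the peak 30.3 kb from the start (chr10:96586012-96587445) was lowered by PGE2 in both states. It had 151, 154, 111 and 134 in PGE2-treated stimulated WT libraries, against 380.5, 371, 334 and 324 in untreated stimulated ones (log2 change -1.36 ± 0.11, limma adjusted p = 2.06e-12). At rest it had 90.8, 92.3 and 108 with PGE2, against 139.8, 149.7, 143 and 152 untreated (log2 change -0.59 ± 0.12, limma adjusted p = 0.000359). The PGE2-treated libraries lay below the untreated ones in each state. Stimulation of untreated WT cells raised it (log2 change 1.26 ± 0.11, limma adjusted p = 2.03e-12).

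The peak 17.1 kb upstream of Btg1 (chr10:96599303-96600495) was raised by PGE2 at rest and by stimulation. It had 477, 485 and 484 in PGE2-treated resting WT libraries, against 277, 338, 356 and 334 in untreated resting WT libraries (log2 change 0.57 ± 0.10, limma adjusted p = 3.17e-05). In stimulated WT libraries it had 843, 693, 706 and 658 with PGE2, against 782, 714, 864 and 844 untreated, and these overlapped (log2 change -0.15 ± 0.09, limma adjusted p = 0.198). Stimulation without PGE2 raised it by 1.29 ± 0.09 on the log2 scale (limma adjusted p = 3.63e-15). The PGE2 effect differed between stimulated and resting cells by -0.71 ± 0.13 (limma adjusted p = 0.000101).

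**Figure D3:**
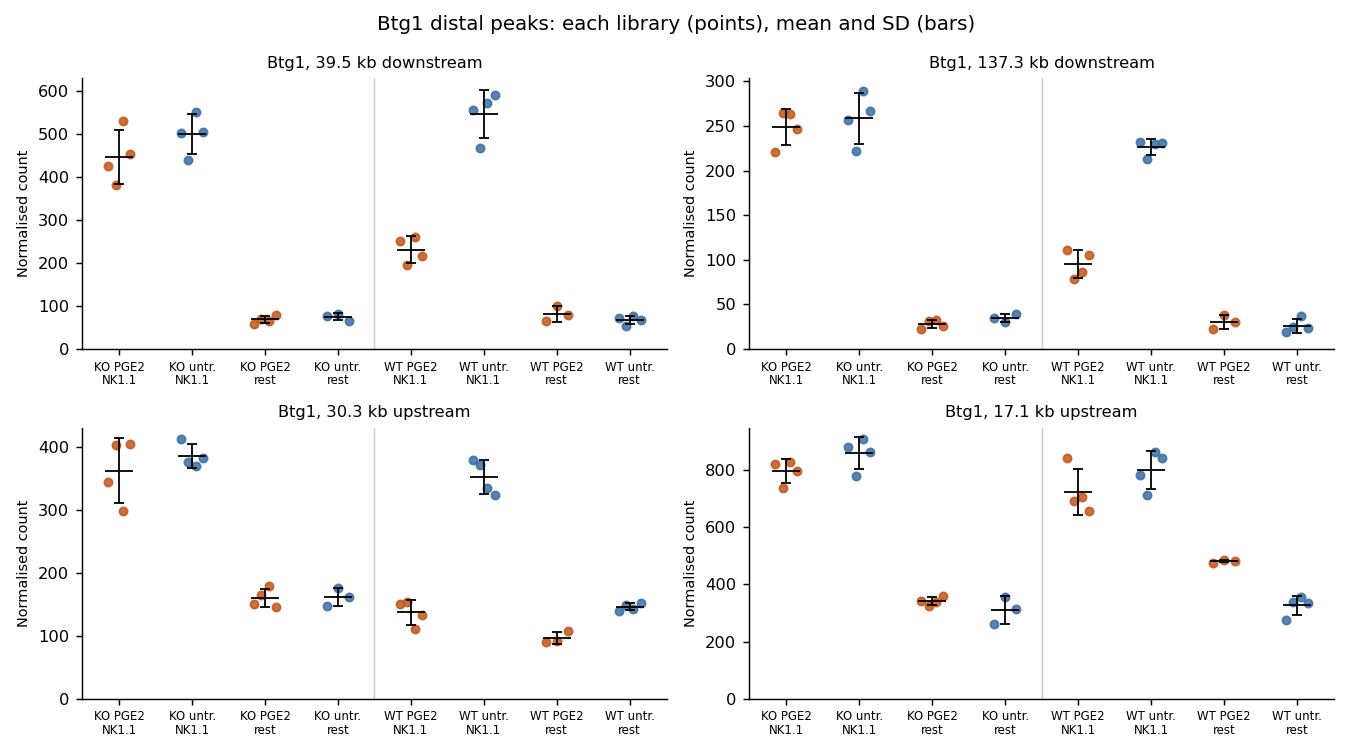
Normalised read counts of 4 distal Btg1 peaks in each library (points) of the 8 groups, with the group mean and SD (black bars); orange points are PGE2-treated and blue points untreated libraries. In stimulated WT cells the PGE2-treated libraries lie below the untreated ones at 39.5 and 137.3 kb downstream and 30.3 kb upstream, and the 2 sets overlap at 17.1 kb upstream.

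Of the other 14 distal Btg1 peaks, the one 156.2 kb upstream averaged 54.6 ± 21.0 in PGE2-treated stimulated WT cells and 122 ± 8.73 in untreated stimulated ones (log2 change -1.22 ± 0.26, limma adjusted p = 0.000218), and rose on stimulation (log2 change 1.68 ± 0.26, limma adjusted p = 6.69e-07). The peak 11.6 kb downstream averaged 202 ± 4.58 in PGE2-treated stimulated WT cells and 329 ± 62.4 in untreated stimulated ones (log2 change -0.68 ± 0.18, limma adjusted p = 0.00179), and also rose on stimulation (log2 change 1.52 ± 0.18, limma adjusted p = 2.02e-09). The outermost peak, 170.4 kb downstream, went the other way. It averaged 267 ± 17.7 in PGE2-treated stimulated WT cells and 190.0 ± 18.1 in untreated stimulated WT cells (log2 change 0.49 ± 0.11, limma adjusted p = 0.000424), and it fell on stimulation (log2 change -0.99 ± 0.11, limma adjusted p = 9.06e-10). The peak 14.5 kb upstream averaged 45.1 ± 12.8 with PGE2 and 28.0 ± 14.1 untreated in stimulated WT cells, with overlapping libraries (log2 change 0.80 ± 0.30, limma adjusted p = 0.03). Its PGE2 call was lost with edgeR (adjusted p = 0.0705), with DESeq2 (adjusted p = 0.0506), with only the compared groups in the fit (adjusted p = 0.0669) and when single libraries were left out (adjusted p = 0.0699 to 0.281 without PGE2-treated stimulated WT replicates 1 or 3 or untreated stimulated WT replicate 2). On stimulation it fell by 1.50 on the log2 scale (limma adjusted p = 5.25e-05).

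The Btg1 peak 6.5 kb downstream averaged 305 ± 18.3 with PGE2 and 379.7 ± 26.9 untreated in stimulated WT cells (log2 change -0.31 ± 0.12, limma adjusted p = 0.0324), a call lost with equal library totals (adjusted p = 0.0739) and when single libraries were left out (adjusted p = 0.051 to 0.101 without PGE2-treated stimulated WT replicates 1, 2 or 3 or untreated stimulated WT replicates 1, 3 or 4). It rose on stimulation (log2 change 0.42 ± 0.12, limma adjusted p = 0.00268). The peaks 47.2 and 28.2 kb upstream rose with PGE2 at rest and on stimulation. At 47.2 kb the means were 105 ± 12.1 in PGE2-treated resting WT cells and 78.3 ± 6.87 in untreated resting ones (log2 change 0.42 ± 0.14, limma adjusted p = 0.0437), and this call did not hold with edgeR (adjusted p = 0.0568), with DESeq2 (adjusted p = 0.0534), with equal library totals (adjusted p = 0.0681), with only the compared groups in the fit (adjusted p = 0.0788) or when single libraries were left out (adjusted p = 0.0663 to 0.206 without PGE2-treated resting WT replicates 2 or 3 or untreated resting WT replicates 1, 2 or 4). At 28.2 kb they were 196 ± 25.6 in PGE2-treated and 138 ± 19.8 in untreated resting WT cells (log2 change 0.50 ± 0.14, limma adjusted p = 0.0123), with the call lost in some cases (adjusted p = 0.0589 to 0.112 without PGE2-treated resting WT replicate 4 or untreated resting WT replicate 1). Stimulation raised the 2 peaks by 1.13 ± 0.13 and 0.47 ± 0.13 on the log2 scale (limma adjusted p = 3.15e-09 and 0.00247). The peak 108.0 kb downstream averaged 93.3 ± 10.6 in untreated stimulated WT cells and 156 ± 14.5 in untreated resting ones (log2 change -0.74 ± 0.13, limma adjusted p = 6.16e-06), and PGE2 did not change it past the threshold in either state. The 6 remaining distal peaks, at 100.9, 81.4, 51.5 and 18.9 kb upstream and 47.0 and 81.1 kb downstream, were not called in these 3 contrasts. Their means in untreated resting WT cells ranged from 20.6 to 167.

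The Btg1 promoter (chr10:96616390-96618724) had 2822, 3028, 2669 and 2553 in PGE2-treated stimulated WT libraries, against 3625, 3466, 3024 and 3037 in untreated stimulated WT libraries, with 1 PGE2-treated library inside the range of the untreated ones. The log2 change of -0.25 ± 0.11 did not pass (limma adjusted p = 0.0637). Same-numbered stimulated WT libraries deviated together (correlations 0.12 to 0.21), and with the replicate number as a block this change passed (adjusted p = 0.00366), as it did with only the compared groups in the fit (adjusted p = 0.0034). With the block the peak 28.2 kb upstream also passed in this comparison (log2 change 0.28, adjusted p = 0.0402), and no call of the family was lost. At rest the Btg1 promoter had 2709, 2932 and 2657 with PGE2, against 3292, 3151, 3081 and 2998 untreated, without overlap, but its log2 change of -0.18 ± 0.12 did not pass (limma adjusted p = 0.356). On stimulation of untreated WT cells it changed by 0.07 (95% interval -0.15 to 0.28).

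Btg3, which like Btg2 is known as a p53 target, had a promoter that opened on stimulation and was lower with PGE2. Its promoter peak (chr16:78375123-78377399) had 782, 759, 885 and 843 in PGE2-treated stimulated WT libraries, against 1207, 1254, 1287 and 1267 in untreated stimulated WT libraries (log2 change -0.62 ± 0.07, limma adjusted p = 6.22e-09). At rest it had 862, 945 and 953 with PGE2, against 849.5, 895, 805 and 871 untreated, and these overlapped (log2 change 0.11 ± 0.08, limma adjusted p = 0.429). Stimulation of untreated WT cells raised it by 0.55 ± 0.07 on the log2 scale (limma adjusted p = 2.06e-08). With PGE2, each stimulated WT library lay below each untreated stimulated one, and the change between stimulated and resting cells was -0.17 ± 0.08 (limma adjusted p = 0.129). Among all 12048 promoter peaks, 19.5% rose on stimulation and 19.9% fell with PGE2 during stimulation. The Btg3 peak inside Cxadr averaged 45.2 ± 19.3 in untreated stimulated WT cells and 78.6 ± 16.1 in untreated resting ones (log2 change -0.85 ± 0.25, limma adjusted p = 0.00372), with overlapping libraries.

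Tob1 and Tob2 had 5 peaks, of which 0 were called with PGE2 at rest, 1 with PGE2 during stimulation and 3 on stimulation. Of all peaks, 14.9%, 40.5% and 56.3% were called in these contrasts, so counts among 5 peaks do not set these genes apart. The Tob1 promoter (chr11:94209842-94212507) had 2716, 2673, 2345 and 2377 in untreated stimulated WT libraries, against 2910.5, 3098, 2985 and 2983 in untreated resting ones (log2 change -0.25 ± 0.09, limma adjusted p = 0.0184). That call was lost in 2 cases (adjusted p = 0.0597 to 0.0662 without untreated stimulated WT replicates 3 or 4). With PGE2 the promoter changed by -0.05 in stimulated WT cells (95% interval -0.23 to 0.13) and 0.00 in resting ones (95% interval -0.19 to 0.20). The Tob1 peak 50.3 kb upstream was not called in any of the 13 comparisons.

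The Tob2 promoter (chr15:81857595-81860252) had 1123, 1079, 985 and 1055 in PGE2-treated stimulated WT libraries, against 1458, 1293, 1352 and 1386 in untreated stimulated WT libraries (log2 change -0.37 ± 0.09, limma adjusted p = 0.000715). It had 1128, 998, 960.2 and 902 in untreated resting WT libraries, so that each untreated stimulated library lay above each resting one (log2 change 0.46 ± 0.09, limma adjusted p = 2.11e-05). The direction was the same as at the Btg3 promoter. The Tob2 exon peak, 6.8 kb downstream of the start, averaged 106 ± 14.2 in untreated stimulated WT cells and 208 ± 26.9 in untreated resting ones, and fell on stimulation (log2 change -0.97 ± 0.18, limma adjusted p = 1.67e-05). The Tob2 intron peak was not called in any of the 13 comparisons.

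In KO cells the Tob2 promoter averaged 1154 ± 73.2 in PGE2-treated stimulated libraries and 1297 ± 244 in untreated stimulated ones, and the Tob1 promoter 2362 ± 321 with PGE2 and 2249 ± 261 untreated. In resting KO cells the Tob2 promoter averaged 878 ± 64.3 with PGE2 and 888 ± 50.2 untreated, and the Tob1 promoter 2931 ± 172 with PGE2 and 2785 ± 82.8 untreated. None of these 4 PGE2 contrasts was called. Within the 4 same-numbered stimulated KO pairs, the PGE2-treated library was lower in 4 at the Tob2 promoter and higher in 4 at the Tob1 promoter. Within the 3 resting KO pairs it was lower in 3 at the Tob2 promoter and higher in 3 at the Tob1 promoter.

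**Figure D4:**
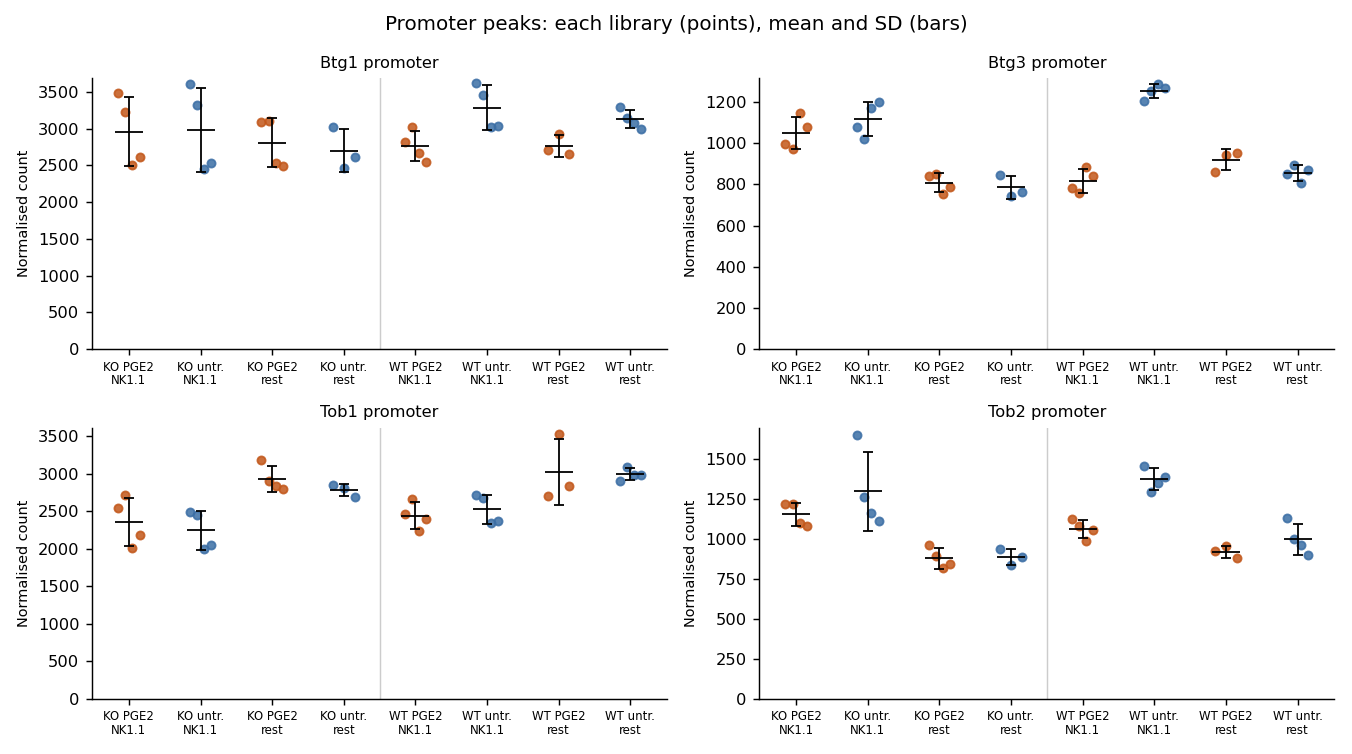
Normalised read counts at the promoter peaks of Btg1, Btg3, Tob1 and Tob2 in each library (points) of the 8 groups, with the group mean and SD (black bars); orange points are PGE2-treated and blue points untreated libraries. At Btg3 and Tob2 the PGE2-treated stimulated WT libraries all lie below the untreated stimulated WT libraries, and the stimulated KO groups spread widely at Btg1 and Tob1.

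The PGE2 effect depended on stimulation at 13 of the 33 peaks, against 25.3% of all peaks and 30.6% of intergenic peaks. Taken as the effect in stimulated minus that in resting WT cells, the difference was positive at 5 peaks, 4 of them downstream of Btg2, and negative at 8. It was 1.20 ± 0.20 at the Btg2 peak 11.9 kb downstream and 1.01 ± 0.17 at that 13.7 kb downstream (limma adjusted p = 2.27e-05 and 4.37e-05). At Btg1 it was -1.51 ± 0.20 at 39.5 kb and -1.46 ± 0.26 at 137.3 kb downstream (limma adjusted p = 5.65e-07 and 7.71e-05), and at the Btg3 promoter -0.72 ± 0.10 (limma adjusted p = 2.87e-06). Of the smaller differences, that at the Btg1 peak 47.2 kb upstream was -0.64 ± 0.20 (limma adjusted p = 0.0135; adjusted p = 0.0511 without PGE2-treated resting WT replicate 2), and that at the Btg2 peak 15.7 kb downstream was 0.46 ± 0.16 (limma adjusted p = 0.0329; adjusted p = 0.0514 to 0.0909 without PGE2-treated stimulated WT replicate 2, untreated stimulated WT replicates 3 or 4, PGE2-treated resting WT replicates 2 or 4 or untreated resting WT replicate 1). Same-numbered libraries deviated together in stimulated but not in resting WT cells. With the replicate number as a block the Btg1 peak 156.2 kb upstream and the Tob2 promoter were called too (log2 difference -0.93 and -0.31, adjusted p = 0.0305 and 0.0134).

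With PGE2 present, stimulation of WT cells raised 8 peaks of the family and lowered 3, where 16.5% of all peaks and 19.9% of intergenic peaks were called. The Btg1 peaks 39.5 and 137.3 kb downstream still rose, by 1.51 ± 0.15 and 1.65 ± 0.19 on the log2 scale (limma adjusted p = 4.98e-10 and 3.49e-08). Without PGE2-treated resting WT replicate 3, or without PGE2-treated stimulated WT replicate 3, the count of called peaks was 6, and without PGE2-treated resting WT replicate 2 or 4 it was 7.

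In cells lacking EP2 and EP4, no peak of the family was called with PGE2. At rest, 0 of the 33 were called by limma, edgeR and DESeq2, where 0% of all peaks were called by limma, and 1 of the family had an unadjusted p under 0.05, against 3.95% of all peaks. During stimulation, 0 of the 33 were called by the same 3 tools, where 0.0026% of all peaks were called, and 5 of the family had an unadjusted p under 0.05, against 4.24% of all peaks. Leaving out the library that stands apart, untreated resting KO replicate 2, the count at rest was again 0. At the Btg1 peak 39.5 kb downstream, PGE2-treated stimulated KO libraries had 425, 382, 530.2 and 454, against 502, 439, 553 and 506 in untreated stimulated KO libraries. At that 30.3 kb upstream they had 344, 404, 299 and 405, against 414, 376, 371 and 383 in untreated stimulated KO libraries. For the Btg3 promoter they had 999, 973, 1147 and 1079.9, against 1081, 1020.3, 1174 and 1199 in untreated stimulated KO libraries. At each of these 3 peaks the KO groups overlapped. Same-numbered stimulated KO libraries deviated together, and within the 4 same-numbered pairs the PGE2-treated library was the lower one in 4 at 39.5 kb, in 2 at 30.3 kb and in 4 at the Btg3 promoter. With the replicate number as a block, none of the 3 was called. The other peaks called with PGE2 in stimulated WT cells were examined likewise. The PGE2-treated KO library was lower in 4 pairs at the Tob2 promoter and the Btg1 peak 11.6 kb downstream. For Btg1 it was lower in 3 at 137.3 kb downstream and higher in 3 at 14.5 kb upstream. It was lower in 2 at 156.2 kb upstream and 6.5 and 170.4 kb downstream. For Btg2 it was higher in 4 at 18.0 and 15.7 kb and in 3 at 13.7 and 11.9 kb downstream. Upstream of Btg2 that library was lower in 3 pairs at 4.1 kb and higher in 3 at 14.3 kb, a peak that PGE2 lowered in WT. A missed threshold does not show that the peaks did not change, and intervals limit the size only at the peaks named. Over all Btg1 peaks, the PGE2 log2 change in KO ran from -0.27 to 1.00 during stimulation and -0.68 to 0.55 at rest. At Btg3 it reached 0.52 during stimulation, and at Btg2 0.32. During stimulation, the 95% interval of the PGE2 change in KO cells ran over -0.06 to 0.43 at the Btg2 peak 13.7 kb downstream, -0.44 to 0.11 at the Btg1 peak 39.5 kb downstream and -0.24 to 0.05 at the Btg3 promoter, on the log2 scale.

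The PGE2 responses of the genotypes were then compared directly, as the effect in KO minus the effect in WT. During stimulation they differed at 10 of the 33 peaks, against 20% of all peaks and 24% of intergenic peaks. The difference was -1.37 ± 0.17 at the Btg2 peak 13.7 kb downstream (limma adjusted p = 1.88e-07), with a PGE2 change of 0.19 in KO and 1.55 in WT. It was -1.15 ± 0.19 at the peak 11.9 kb downstream of Btg2 (limma adjusted p = 2.69e-05), where the changes were 0.32 in KO and 1.47 in WT. At these 2 peaks the PGE2 opening was larger in WT than in KO. At Btg1 the difference was 1.26 ± 0.16 at 30.3 kb upstream, 1.08 ± 0.19 at 39.5 kb downstream and 1.20 ± 0.25 at 137.3 kb downstream (limma adjusted p = 1.92e-07, 6.83e-05 and 0.000628). For the Btg3 promoter it was 0.53 ± 0.10 and for the Btg2 peak 14.3 kb upstream 0.45 ± 0.10 (limma adjusted p = 0.000181 and 0.00101). At these 5 peaks PGE2 lowered accessibility in WT, and the change in KO was not called. At the Tob2 promoter the PGE2 change was -0.15 in KO and -0.37 in WT, and the difference of 0.22 ± 0.12 did not pass (limma adjusted p = 0.232).

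The other 3 differences were less firm. That of the Btg1 peak 156.2 kb upstream was 1.13 ± 0.36 (limma adjusted p = 0.0236; adjusted p = 0.0529 to 0.066 without PGE2-treated stimulated WT replicate 2, PGE2-treated stimulated KO replicate 3 or untreated stimulated KO replicate 2), and that of the Btg2 peak 18.0 kb downstream was -0.42 ± 0.13 (limma adjusted p = 0.0174; adjusted p = 0.0517 to 0.0596 without untreated stimulated WT replicate 3 or PGE2-treated stimulated KO replicate 3). The Btg1 peak 170.4 kb downstream differed by -0.43 ± 0.16 (limma adjusted p = 0.0488), and its call was lost with TMM scaling (adjusted p = 0.0517), edgeR (0.0697), DESeq2 (0.0601), only the compared groups in the fit (0.102) and when single libraries were left out (adjusted p = 0.0571 to 0.138 without PGE2-treated stimulated WT replicates 1, 2 or 4, untreated stimulated WT replicates 1, 3 or 4, PGE2-treated stimulated KO replicates 1 or 3 or untreated stimulated KO replicates 1, 2 or 4). At rest the PGE2 responses of the genotypes differed at 2 of the 33 peaks, against 6.18% of all peaks and 8.57% of intergenic peaks. They were the Btg1 peak 30.3 kb upstream, with 0.57 ± 0.17 (limma adjusted p = 0.0317; adjusted p = 0.0527 to 0.0854 without PGE2-treated resting WT replicates 2 or 3, untreated resting WT replicates 2 or 4, PGE2-treated resting KO replicates 2 or 3 or untreated resting KO replicates 2 or 4), and the Btg2 peak 14.3 kb upstream, with -0.40 ± 0.11 (limma adjusted p = 0.0181; adjusted p = 0.0521 to 0.0797 without PGE2-treated resting WT replicate 3 or untreated resting KO replicates 3 or 4). With only the compared groups in the fit, the first of these was lost as well (adjusted p = 0.0554). By edgeR and by DESeq2, 4 peaks of the family were called, and 2495 and 2818 of all peaks, against 2381 of all peaks by limma. With the replicate number as a block, the Btg1 peak 17.1 kb upstream was called as well (log2 difference -0.43, adjusted p = 0.0279). Same-numbered libraries deviated together in resting KO but not in resting WT cells. Without the library that stands apart, the first of these 2 was lost and the Btg1 peak 17.1 kb upstream was called (adjusted p = 0.00879). The count was 0 without PGE2-treated resting WT replicate 3 or untreated resting KO replicate 4, and 1 without untreated resting WT replicate 2 or untreated resting KO replicate 3.

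**Figure D5:**
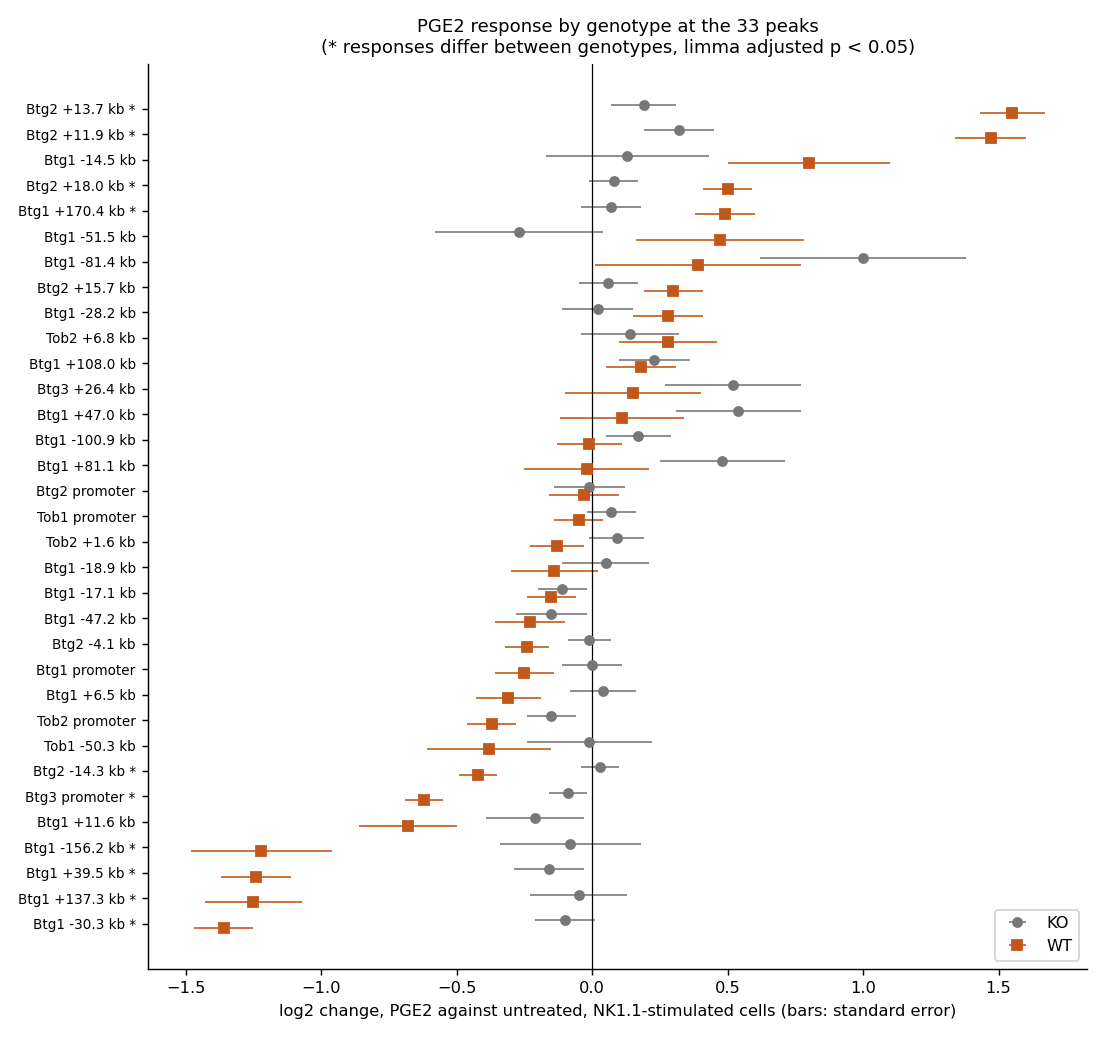
Log2 change with PGE2 in NK1.1-stimulated KO (grey circles) and WT (orange squares) cells at the 33 peaks, ordered by the change in WT, with standard errors; an asterisk marks the 10 peaks at which the responses differed at an adjusted p under 0.05. The Btg2 peaks 13.7 and 11.9 kb downstream stand at 1.55 and 1.47 in WT, and at 0.19 and 0.32 in KO.

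Stimulation itself was seen in both genotypes. In untreated KO cells it raised 13 peaks of the family and lowered 12, where 54.5% of all peaks and 60.5% of intergenic peaks were called. All 23 peaks called in untreated WT cells were among these 25 with the same sign. These comparisons share no library. The matching overlap of calls over all peaks is not given here, so this agreement is not read as a trait of the family. The Btg1 peaks 39.5 and 137.3 kb downstream rose by 2.73 ± 0.15 and 2.86 ± 0.19 on the log2 scale in KO, against 3.02 ± 0.13 and 3.11 ± 0.18 in WT. The other 2 peaks called in KO were those 47.0 and 81.1 kb downstream of Btg1, the first of them lost without the library that stands apart (adjusted p = 0.0869), without untreated stimulated KO replicate 1 (0.175), without untreated resting KO replicate 4 (0.0631) and with only the compared groups in the fit (0.0687). Among the 23, the KO call at the Btg1 peak 14.5 kb upstream (limma adjusted p = 0.0348) was lost when single libraries were left out (adjusted p = 0.0548 to 0.109 without untreated stimulated KO replicates 1, 3 or 4 or untreated resting KO replicates 3 or 4), as was that at the Btg3 peak inside Cxadr (adjusted p = 0.0559 without untreated resting KO replicate 3). The stimulation effect of the genotypes differed at 0 of the 33 peaks by limma, edgeR and DESeq2, where 0.00779% of all peaks were called, and 3 of the family had an unadjusted p under 0.05, against 3.77% of all peaks. Without the library that stands apart the count of called peaks was again 0. With PGE2 present, stimulation of KO cells raised 13 peaks and lowered 11, where 54.8% of all peaks and 60.4% of intergenic peaks were called. Of these 24 peaks, 10 were called with the same sign on stimulation of PGE2-treated WT cells, which is 41.7% of the KO set and 90.9% of the WT set of 11. The matching shares over all peaks are not given here.

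Before any treatment, KO and WT resting cells differed at 0 of the 33 peaks by limma and edgeR, where 1.73% of all peaks were called. An unadjusted p under 0.05 was found at 5 of them, against 15.5% of all peaks. Without the library that stands apart, limma again called 0 of the family, where it called 851 of all peaks, against 665 with it. DESeq2, run with every library, called 1058 of all peaks and 1 of the family. This was the Btg2 peak 11.9 kb downstream, with 234, 252 and 290.1 in untreated resting KO libraries, against 204, 187, 199 and 193 in untreated resting WT libraries (DESeq2 log2 change 0.41, adjusted p = 0.0392; limma adjusted p = 0.165). The Btg1 promoter had 3480.4, 3226, 2510.2 and 2618 in PGE2-treated stimulated KO libraries, against 3613, 3319, 2452 and 2539 in untreated stimulated KO libraries, and in both groups replicates 1 and 2 lay above replicates 3 and 4. Correlations of the deviations of same-numbered libraries over all peaks were 0.22 to 0.53 in this comparison, and with the replicate number as a block no peak of the family was called either. Tob2 and the targeted gene Ptger4 lie on the same chromosome, and no Tob2 peak differed between untreated resting KO and WT cells past the threshold.

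The other genes of the pathway were followed as lists, which were chosen with earlier results known. Over all peaks, 20.2% rose and 20.4% fell with PGE2 during stimulation, 10.9% rose and 4.03% fell with PGE2 at rest, and 28.9% rose and 27.4% fell on stimulation. For the genes of deadenylation (20 genes, 50 peaks), which include the CCR4-NOT and PAN complexes and poly(A)-binding proteins, 12 peaks rose and 7 fell with PGE2 during stimulation, 6 rose and 1 fell with PGE2 at rest, and 11 rose and 17 fell on stimulation. The shares called were 38%, 14% and 56%, near the 40.5%, 14.9% and 56.3% of all peaks, and the median log2 changes were 0.03, 0.01 and -0.11, against -0.01, -0.01 and -0.02 over all peaks. Examples are an intergenic peak of Pabpc1, a poly(A)-binding protein, which rose with PGE2 in stimulated cells (log2 change 0.85 ± 0.11), another intergenic peak of that gene, which rose with PGE2 at rest (log2 change 0.81 ± 0.18), and one of Cnot6l, a deadenylase subunit, which rose on stimulation (log2 change 1.50 ± 0.23). A peak of Tent5a, a poly(A) polymerase with the opposite activity, fell on stimulation (log2 change -1.20 ± 0.13) and with PGE2 at rest (log2 change -0.74 ± 0.15). Of 20 peaks of decapping and decay genes, 4 rose and 3 fell with PGE2 during stimulation, 3 rose and 1 fell with PGE2 at rest, and 4 rose and 7 fell on stimulation, which is 35%, 20% and 55% of the list. The promoter of Ddx6, a decapping helicase that joins CCR4-NOT, was among those that fell on stimulation (log2 change -0.57 ± 0.07).

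Lymphocyte quiescence factors, a list of 15 genes with 188 peaks, had 38 peaks higher and 1 lower with PGE2 at rest, 59 higher and 42 lower with PGE2 during stimulation, and 75 higher and 49 lower on stimulation. The shares called were 20.7%, 53.7% and 66%, against 14.9%, 40.5% and 56.3% of all peaks. With PGE2 at rest 20.2% of the list rose, against 10.9% of all peaks, and the median log2 change was 0.13, against -0.01. By class, 16% of all intron peaks, 14.5% of intergenic and 2.2% of promoter peaks rose in that contrast. The shares called were 20.4%, 19.7% and 4.69%. The peak classes of the lists are not given here, so an excess over all peaks is not read as a trait of a list. An intron peak of Bach2, a transcriptional repressor in lymphocytes, rose with PGE2 at rest (log2 change 0.89 ± 0.09), as did an intron peak of that gene with PGE2 during stimulation (log2 change 1.06 ± 0.08). Intron peaks of Runx1 and Foxp1, of the same list, fell with PGE2 during stimulation (log2 change -1.62 ± 0.19 and -1.02 ± 0.12). Among 36 peaks of cell cycle inhibitors, 8 rose and 8 fell with PGE2 during stimulation, 4 rose and 1 fell with PGE2 at rest, and 13 rose and 14 fell on stimulation, which is 44.4%, 13.9% and 75% of the list. Of 59 peaks of cell cycle drivers, 6 rose and 17 fell with PGE2 during stimulation, 7 rose and 4 fell with PGE2 at rest, and 23 rose and 12 fell on stimulation, which is 39%, 18.6% and 59.3%. A Ccnd2 intron peak, at a D-type cyclin gene, fell with PGE2 during stimulation (log2 change -0.96 ± 0.10). Intron peaks of Cdk6 and E2f2, also of this list, rose in that contrast (log2 change 0.73 ± 0.11 and 0.70 ± 0.13). Of 29 peaks of p53 targets other than the family, 3 rose and 6 fell with PGE2 during stimulation, 3 rose and 4 fell with PGE2 at rest, and 8 rose and 7 fell on stimulation, which is 31%, 24.1% and 51.7%. The 117 peaks of immediate-early genes had 16 higher and 51 lower with PGE2 during stimulation, 21 higher and 4 lower with PGE2 at rest, and 72 higher and 14 lower on stimulation, which is 57.3%, 21.4% and 73.5%. Their median log2 change was -0.19 with PGE2 during stimulation and 0.54 on stimulation, against -0.01 and -0.02 over all peaks.

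The peaks whose pattern over the 30 libraries was most like that of a member were found by Pearson's r of log2(normalised count + 1), given as a description over libraries that fall into 8 groups. The Btg2 peak 13.7 kb downstream was most like peaks of Dennd4c (r = 0.979), Rreb1 (0.975) and A930006K02Rik (0.972). For the Tob1 promoter they were the promoters of Cnot3, a CCR4-NOT subunit (0.954), Mob3a (0.947) and Crlf2 (0.945). The Btg1 promoter was most like those of Eif4g2 (0.939), Fem1a (0.909) and H2-DMa (0.906). The Btg2 promoter resembled peaks of Zyx (0.915) and H3f3b (0.897), the Btg3 promoter peaks of Tet2 (0.918) and Wdr36 (0.913), and the Tob2 promoter those of Golim4 (0.956), Dock2 (0.955) and Rabgap1l (0.949). Between the members, r was 0.98 for the Btg1 peaks 39.5 and 137.3 kb downstream, 0.85 for the Btg1 and Btg2 promoters and -0.94 for the Btg1 peak 30.3 kb upstream and the Btg2 peak 13.7 kb downstream. The Btg2 promoter ran from 1218 to 1905 within untreated stimulated KO libraries, beyond the range of its group means (1430 to 1676). The r of the promoters thus includes differences between libraries of a group and is not read as a shared response.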

How the data were processed

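The 30 libraries are ATAC-seq of cultured mouse NK cells. Per the submitters' processing notes, the tools were Trimmomatic 0.39, Bowtie2 2.4.1, MACS2 2.2.7.1 and DESeq2 (version not given in the sources used here), with mm10. The deposited table gives a signal for each peak in each library, which is a read count scaled by the authors with a size factor, per the file headers and those notes. Duplicate removal and the transposase offset are likewise not given in the sources used here. It is 1 peak set shared by all libraries. Whole reads were recovered from it (100% of values within 0.05 of a whole number in each library).

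The main test was limma 3.58.1 in R 4.3.3 on log2(normalised count + 1), two-sided, with a mean for each group over 30 libraries, an intensity trend, moderated variances and no block, for peaks with a mean of at least 10. It removed 1 peak. The adjusted p (Benjamini-Hochberg) is over all 38525 peaks of a comparison. A fold change on this scale understates the change of low peaks. Alternatives were edgeR 4.0.16 and DESeq2 1.42.0 on recovered reads, TMM scaling, equal totals, a pseudocount of 5, no filter, a mean of at least 50, only the compared groups, the replicate number as a block, and leaving out each library. Differences between contrasts are coded KO minus WT and stimulated minus resting.

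Replicates were compared before averaging. Within groups, the chi-square per degree of freedom between libraries ranged from 2.20 to 12.2, so none looked like a library deposited a second time. Same-numbered libraries deviated together (every correlation over 0.1) in stimulated WT (0.12 to 0.21), resting KO (0.12 to 0.33) and stimulated KO cells (0.22 to 0.53) for the PGE2 contrast, and in PGE2-treated KO cells for stimulation (0.13 to 0.37). The labels do not give this pairing, and differently numbered libraries were not compared in this way. Pairing by single numbers and a split of replicates 1 and 2 from 3 and 4 thus cannot be told apart. In PGE2-treated resting KO cells the chi-square was 2.49 and 2.68 within these sets, against 7.29 to 7.95 across. In untreated resting WT cells it was 3.97 and 3.70 within, against 3.83 to 12.2 across. Untreated resting KO held replicate 2 but not 1.

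The members and gene lists were chosen with earlier results of these data known. Every peak of the family is accounted for, with values in full for promoter peaks and for peaks called in the main WT contrasts. Peaks named from the lists are among the 2 of smallest p in each direction. Promoter sequences are those of RefSeq, GRCm38.p6, where all 5 gene identifiers matched. Distal peak sequences are not used here, and some genes that these rules name are not reported here.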

Additional observations from a re-analysis of the deposited data

Results flagged for a closer look

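In 10 of 198 peak and group combinations with 4 libraries, 1 library lay far from the other 3, where chance at 1 in 20 gives 9.9. The value in each case is the gap to the nearest library as a share of the group's range. All but 1 of these are distal Btg1 peaks, named here by their distance from the start. In PGE2-treated stimulated KO cells, replicate 3 was high at the peak 156.2 kb upstream (0.845; 176, against 112 to 122) and low at that 81.4 kb upstream (0.857; 22.0, against 34.9 to 37.0). In PGE2-treated resting KO cells, replicate 2 was low at 18.9 kb upstream (0.857; 101, against 136 to 141) and replicate 3 high at 81.1 kb downstream (0.934; 92.0, against 69.0 to 70.5). In untreated stimulated KO cells, replicate 4 was high at 108.0 kb downstream (0.964; 103, against 77.3 to 78.2), and replicate 2 was low at the Btg3 peak inside Cxadr (0.858; 33.3, against 37.6 to 38.3). In PGE2-treated stimulated WT cells, replicate 3 was high at 47.2 kb upstream (0.91; 183, against 134 to 138). In untreated stimulated WT cells, replicate 2 was low at 137.3 kb downstream (0.902; 213, against 229.9 to 232) and high at 170.4 kb downstream (0.845; 217, against 177 to 183). In untreated resting WT cells, replicate 1 was high at 100.9 kb upstream (0.929; 195, against 156 to 159).

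The PGE2 response differed between the genotypes, by the test of the difference itself (KO minus WT, log2 scale). At rest it did so at the Btg1 peak 30.3 kb upstream (0.57) and the Btg2 peak 14.3 kb upstream (-0.40). During stimulation it did so at Btg1 peaks 156.2 kb upstream (1.13), 30.3 kb upstream (1.26), 39.5 kb downstream (1.08), 137.3 kb downstream (1.20) and 170.4 kb downstream (-0.43). At Btg2 the differences were -0.42 at 18.0 kb, -1.37 at 13.7 kb and -1.15 at 11.9 kb downstream and 0.45 at 14.3 kb upstream, and at the Btg3 promoter 0.53.

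In WT cells the PGE2 response differed between stimulated and resting cells (stimulated minus resting, log2 scale). For Btg1 the differences were -0.64 at 47.2 kb, -0.77 at 30.3 kb and -0.71 at 17.1 kb upstream, and -1.11 at 11.6 kb, -1.51 at 39.5 kb, -1.46 at 137.3 kb and 0.72 at 170.4 kb downstream. For Btg2 they were 0.69 at 18.0 kb, 0.46 at 15.7 kb, 1.01 at 13.7 kb and 1.20 at 11.9 kb downstream and -0.79 at 14.3 kb upstream. The Btg3 promoter differed by -0.72. Adjusted p-values and the libraries on which calls rest are given with the comparisons.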

How the results depend on the processing

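Of 131 calls of a peak in a comparison, 104 held under every alternative that was run, 27 were lost under at least 1, and 8 of these under an alternative other than leaving out a library. None changed sign. The count of called peaks for the genotype difference of the PGE2 response at rest was 2 as reported, 1 with only the compared groups in the fit, and 4 with edgeR and with DESeq2. Over all peaks these settings called 2381, 2337, 2495 and 2818. For untreated resting KO against WT cells the count was 0 as reported and 1 with DESeq2, and over all peaks 665 and 1058. Leaving out single libraries gave 4 to 7 called peaks for PGE2 in resting WT cells (7 as reported), 6 to 9 for stimulation of PGE2-treated WT cells (11 as reported) and 0 to 3 for the genotype difference of the PGE2 response at rest. Over all peaks, the same leave-outs gave 4178 to 5319 calls (5740 as reported), 4593 to 5821 (6339) and 1693 to 2680 (2381) in these comparisons. The other counts of the family stayed within 1.5 times the reported ones. The cause was not tested. A pseudocount of 5, no filter and the replicate block lost no call. With the block the counts were 18 for PGE2 in stimulated WT cells (16 as reported), 24 for stimulation of untreated WT cells (23), 12 for stimulation of PGE2-treated WT cells (11), 15 for the stimulation dependence of the PGE2 response (13) and 3 for the genotype difference at rest (2). Over all peaks the block raised the counts of these 5 comparisons too, to 16939 (15619 as reported), 22776 (21692), 7967 (6339), 11015 (9757) and 2894 (2381). The peaks gained where same-numbered libraries deviated together in at least 1 contrast are named with those comparisons. The other 2, the Btg1 peaks 81.1 kb downstream on stimulation of untreated WT cells (adjusted p = 0.0445) and 11.6 kb downstream on stimulation of PGE2-treated WT cells (0.0398), are in comparisons where such libraries did not. Equal library totals moved the median of all peaks by less than 0.1, and in untreated resting KO against WT cells moved the share of higher calls over all peaks to 76.9%, against 63.2% with the deposited scaling. Depth limits the low peaks most, since a peak of the family held as few as 2 reads in a library, and intervals here cover the spread between libraries.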
